A study of Mus musculus with 4 samples.

Results

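The receptors described here are 10 members of the TNF receptor superfamily other than TNFR1, listed by gene symbol, with earlier results of these data known. They were *Fas*, *Tnfrsf1b*, *Tnfrsf9*, *Tnfrsf10b*, *Tnfrsf11b*, *Tnfrsf12a*, *Tnfrsf19*, *Tnfrsf21*, *Ltbr* and *Relt*, of the 26322 genes in the deposited table. They were measured by 3′ mRNA sequencing in MC38 cells, a mouse colon cancer line, in 2 sgNT libraries and 2 sgCbfb libraries. All cells had been electroporated with Cas9 bound to a guide RNA, which was non-targeting in sgNT cells (labelled WT) and directed at *Cbfb* in sgCbfb cells (labelled CbfbKO), and RNA was taken at least 1 week later, with no further treatment named in the labels. The labels do not say whether the sgCbfb cells were a mixed pool or a clone, nor whether the libraries of a group came from separate cultures, so the p-values measure only the spread between these libraries.

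TNF superfamily receptors are single-pass membrane proteins that gather into trimers when they bind a trimeric ligand. A subset carries a death domain in the tail, which in some of them recruits FADD and caspase-8 and can start apoptosis. The others lack it and bind TRAF adaptors, which feed the NF-κB and JNK pathways and, for some receptors, the slower non-canonical NF-κB pathway. A few members lack a signalling tail and act as decoys. CBFβ is the non-DNA-binding partner of the RUNX transcription factors. The comparison asked whether the receptors that share this family with TNFR1 were present in these cells and whether their mRNA differed after *Cbfb* editing.

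The libraries held between 3189035 and 3907936 reads on genes, and 1 read was worth between 0.256 and 0.314 CPM, the reads of a gene scaled to the library total. *Cbfb* fell from 86.9 and 85.5 CPM in sgNT cells to 32.0 and 39.2 CPM in sgCbfb cells, to 41.5% of the sgNT level (adjusted p = 1.76e-07 by limma). Over the 12207 genes tested, 345 differed at an adjusted p-value under 0.05, which is 2.83% of them. This count was 0 without either one of the sgCbfb libraries and 0 without the mean-variance trend, so the share is an uncertain yardstick for the receptors. Epithelial markers were nearly absent, with 5 to 7 reads per library over all 8 of them and *Cdx2* and *Epcam* at no more than 1 read. Of the 6 leukocyte markers, 5 had 0 reads in every library, and over the 3 endothelial markers a library held 1 or 2 reads. The 5 fibroblast markers summed to 72.1 and 66.6 CPM in sgNT libraries, against 80.3 and 83.7 CPM in sgCbfb libraries, most of it from *Pdgfra* and *Dcn*. Of the 4 that were tested, *Pdgfra* was 145% of the sgNT level (adjusted p = 0.0515 by limma), *Pdgfrb* 176% (adjusted p = 0.402 by limma), *Col1a1* 133% (adjusted p = 0.695 by limma) and *Dcn* 89.2% (adjusted p = 0.677 by limma). The part of these mesenchymal genes in the results below was not tested.

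In MC38 cells 8 of the 10 receptors were expressed, and the remaining ones, *Tnfrsf11b* and *Tnfrsf19*, had 0 reads in all 4 libraries. The lymphotoxin beta receptor *Ltbr* was by far the most abundant, with the TRAIL death receptor *Tnfrsf10b* next. None of the receptors differed between sgCbfb and sgNT cells past the threshold: 0 of the 8 tested receptors had an adjusted p-value under 0.05 by limma, against 2.83% of all tested genes, and 0 did in voom on the recovered reads. The member with the lowest p-value was *Tnfrsf9*, which was 71.3% of the sgNT level, and it was the 1 receptor with an unadjusted p-value under 0.05, which 14.9% of all tested genes had. Of the 52 other genes of the pathway that were tested, the adaptor *Traf1* was the 1 gene that passed, against 2.83% of all tested genes. *Traf1* was at 52.5% of the sgNT level. The call was lost in 6 of 12 alternatives, while the log2 fold change stayed between -1.03 and -0.83. Of these 6, the fits without sgCbfb replicate 1, without sgCbfb replicate 2 and without the mean-variance trend called 0 genes of the whole table, so no gene could keep its call there. Where 1 library is left out, the lone library of its group is assumed to vary like those of the other group.

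**Figure D1:**
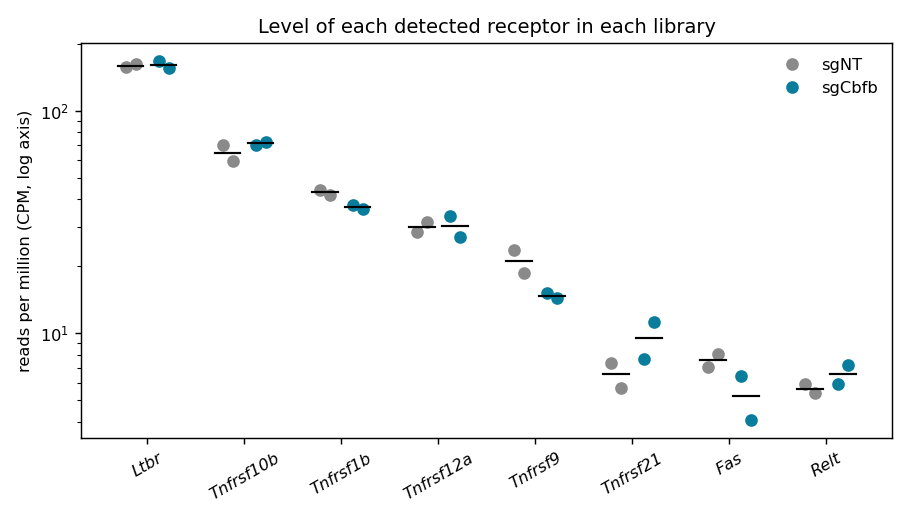
CPM (log axis) of the 8 detected receptors in each library, with grey points for sgNT, blue points for sgCbfb and a bar at each group mean (n = 2). *Ltbr* lies between 155 and 167 CPM in all libraries, and *Tnfrsf21*, *Fas* and *Relt* lie below 12 CPM, while *Tnfrsf11b* and *Tnfrsf19* had no reads and are not drawn.

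Because each transcript gives reads from its 3′ end alone in these libraries, a gene's CPM does not grow with its length, and CPM levels can be set side by side. The order of the mean CPM levels was *Ltbr*, *Tnfrsf10b*, *Tnfrsf1b*, *Tnfrsf12a*, *Tnfrsf9*, *Tnfrsf21*, *Fas* and *Relt*. From *Ltbr* down to *Tnfrsf9*, the 4 libraries of each receptor lay wholly above those of the next, and those of *Tnfrsf9* lay above those of *Tnfrsf21*. The levels of *Tnfrsf21*, *Fas* and *Relt* overlapped, so their order is not resolved. For comparison, TNFR1 itself (*Tnfrsf1a*) had 66.5 and 66.9 CPM in sgNT cells and 74.5 and 62.1 CPM in sgCbfb cells, close to *Tnfrsf10b* and well below *Ltbr*.

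The summed level of the 10 receptors was 339 ± 8.05 CPM (SD, n = 2) in sgNT cells and 336 ± 11.3 CPM (SD, n = 2) in sgCbfb cells, a difference smaller than the spread. Of the receptor reads, *Ltbr* made up 45.7% and 48.6% under sgNT, against 48.5% and 47.4% under sgCbfb. The 95% exact binomial intervals of these shares, which cover counting error only, reached from 42.8% to 51.6% over the 4 libraries. *Tnfrsf10b* gave between 17.8% and 22.1% and *Tnfrsf1b* between 10.9% and 12.8%. *Tnfrsf9* gave 6.84% (5.46% to 8.45%) and 5.59% (4.31% to 7.10%) of the receptor reads in sgNT cells. In sgCbfb cells its shares were 4.39% (3.36% to 5.63%) and 4.40% (3.24% to 5.83%), and these intervals overlap with those of the sgNT libraries.

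**Figure D2:**
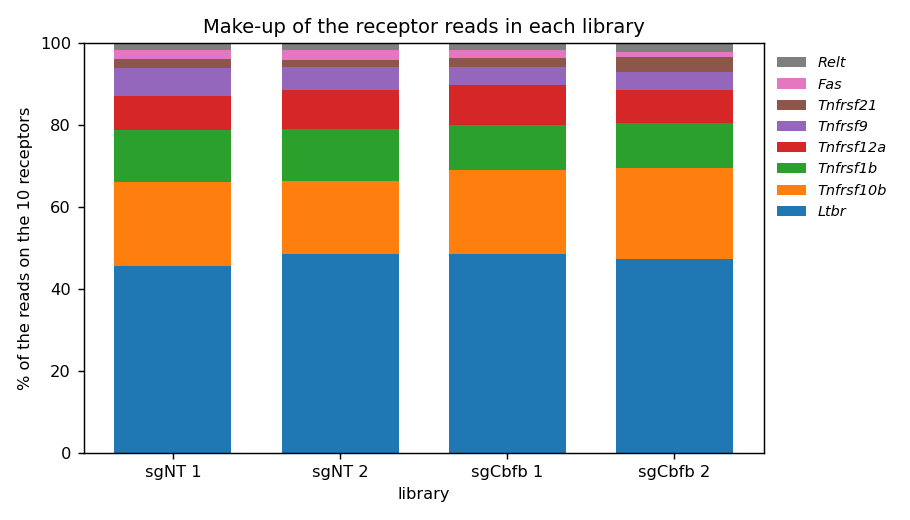
Percentage of the reads on the 10 receptors that fell on each of them, one stacked bar per library. *Ltbr* takes between 45.7% and 48.6% of each bar and *Tnfrsf10b* between 17.8% and 22.1%.

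Of the receptors with a death domain, *Tnfrsf10b* encodes the receptor for TRAIL, the only one of the TRAIL receptors in mice that signals death. It lies on chromosome 14 of GRCm38 from 69767472 to 69784411 on the plus strand. It had 239 and 198 reads in the sgNT libraries, against 275 and 231 in the sgCbfb libraries, which is 70.4 and 59.4 CPM against 70.4 and 72.4 CPM. The groups overlapped, since the first sgNT library was level with the first sgCbfb library. The fitted log2 difference was 0.14 (SE, the standard error, 0.11, 95% interval -0.088 to 0.37, adjusted p = 0.613 by limma), so that a rise beyond 1.29-fold or a fall below 0.941 of the sgNT level lies outside the interval.

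*Fas*, which encodes the receptor for Fas ligand and is a classical trigger of T cell killing, lies on chromosome 19 (34290666 to 34327772, plus strand). It was low, with 24 and 27 reads in the sgNT libraries, against 25 and 13 in the sgCbfb libraries, or 7.07 and 8.10 CPM against 6.40 and 4.08 CPM. Both sgCbfb libraries were below both sgNT libraries, the second one by more. As a log2 fold change this was -0.52 (SE 0.32, 95% interval -1.18 to 0.15, adjusted p = 0.499 by limma). Without the second sgCbfb library it was -0.22 and without the first -0.81, so 1 library decides its size.

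*Tnfrsf21* encodes DR6, a death-domain receptor that is known from neurons and lymphocytes. It lies on chromosome 17 (43016555 to 43089189, plus strand) and had 25 and 19 reads in the sgNT libraries, against 30 and 36 in the sgCbfb libraries. These are 7.36 and 5.70 CPM against 7.68 and 11.3 CPM. The sgCbfb libraries were both above the sgNT libraries, but the first of them lay only just above the higher sgNT library. The difference came to a log2 value of 0.49 (SE 0.30, 95% interval -0.13 to 1.11, adjusted p = 0.487 by limma), and with each library left out in turn it ranged from 0.23 to 0.75, the lowest without sgCbfb replicate 2.

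Among the receptors that bind TRAF adaptors, *Ltbr* on chromosome 6 (125306571 to 125313885, minus strand) was the highest, at the 91.3rd percentile of all tested genes by mean log2 level. It encodes the receptor for membrane lymphotoxin and LIGHT and is known for its signal to the non-canonical NF-κB pathway. *Ltbr* and *Tnfrsf1a* are neighbours in the genome, with 35476 bases between them. Its reads numbered 534 and 540 in the sgNT libraries, against 652 and 495 in the sgCbfb libraries, or 157 and 162 CPM against 167 and 155 CPM. One sgCbfb library lay above and the other below both sgNT libraries. With this depth the difference was the most tightly bounded of the family, at 0.012 on the log2 scale (SE 0.079, 95% interval -0.15 to 0.18, adjusted p = 0.967 by limma), or between 0.900 and 1.13 of the sgNT level.

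*Tnfrsf12a*, the small receptor Fn14 for the ligand TWEAK, is known to be induced by growth factors and injury. It lies on chromosome 17 (23675445 to 23677468, minus strand). It had 97 and 106 reads in the sgNT libraries, against 132 and 86 in the sgCbfb libraries, or 28.6 and 31.8 CPM against 33.8 and 27.0 CPM. The sgCbfb libraries lay on either side of the sgNT libraries. On the log2 scale the fold change was 0.0026 (SE 0.16, 95% interval -0.33 to 0.33, adjusted p = 0.995 by limma), and its sign and that of *Ltbr* depended on the setting, both being slightly negative with median centring and with voom and TMM scaling, and *Tnfrsf12a* also with quantile normalization.

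*Tnfrsf1b* encodes TNFR2, the second TNF receptor, which has no death domain and binds TRAF2 together with TRAF1. It lies on chromosome 4 (145213463 to 145246870, minus strand). It had 150 and 140 reads in the sgNT libraries, against 147 and 115 in the sgCbfb libraries, which gives 44.2 and 42.0 CPM against 37.6 and 36.1 CPM. Both sgCbfb libraries were below both sgNT libraries, and the replicates of each group lay close together. The fitted log2 difference was -0.22 (SE 0.13, 95% interval -0.50 to 0.053, adjusted p = 0.475 by limma). On the linear scale the interval runs from 0.708 to 1.04 of the sgNT level.

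*Tnfrsf9*, which encodes the co-stimulatory receptor CD137, is best known from activated T cells and signals through TRAF1 and TRAF2. It lies on the plus strand of chromosome 4 (150914562 to 150946102). It received 80 and 62 reads under sgNT, against 59 and 46 under sgCbfb, or 23.6 and 18.6 CPM against 15.1 and 14.4 CPM. Both sgCbfb libraries were below both sgNT libraries, while the sgNT libraries differed from each other by more than the sgCbfb libraries did. As a log2 fold change this was -0.49 (SE 0.20, 95% interval -0.91 to -0.067), with an unadjusted p of 0.0251 and an adjusted p of 0.243 by limma, which did not pass. Over the alternatives run, its log2 fold change ranged from -0.65 to -0.32 and its adjusted p from 0.178 to 0.786. As the libraries are of whole cultures, fewer cells with *Tnfrsf9* mRNA and less of it per cell cannot be told apart, here or for any other gene.

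The *Tnfrsf9* locus overlaps *Camta1* on the opposite strand, also over its last kilobase, although no exon of one overlaps an exon of the other in GENCODE M21. The sources used here do not state whether strand was used in counting. *Camta1* had 17.7 and 13.8 CPM in sgNT cells and 11.5 and 14.4 CPM in sgCbfb cells. This gave a log2 fold change of -0.27 (SE 0.23, adjusted p = 0.659 by limma), and its part in the *Tnfrsf9* value was not tested. No annotated exon of another gene overlapped an exon of any of the 10 receptors.

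*Relt*, a TNF receptor of lymphoid tissue without a death domain, lies on chromosome 7 (100845847 to 100863446, minus strand). It had 20 and 18 reads in the sgNT libraries, against 23 and 23 in the sgCbfb libraries, or 5.89 and 5.40 CPM against 5.89 and 7.21 CPM. The first sgCbfb library was level with the first sgNT library. The difference came to a log2 value of 0.19 (SE 0.32, 95% interval -0.46 to 0.84, adjusted p = 0.849 by limma), an interval of 0.727 to 1.79 of the sgNT level.

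*Tnfrsf11b* encodes osteoprotegerin, the secreted decoy for RANK ligand, and lies on chromosome 15 (54250619 to 54278484, minus strand). *Tnfrsf19* encodes TROY, a receptor of the developing nervous system and of stem cells, and lies on chromosome 14 (60963875 to 61046490, minus strand). Neither gene had a read in any library, so they did not enter the test. A count of 0 allows up to 3 reads, which is 0.446 CPM over the sgNT libraries together and 0.423 CPM over the sgCbfb libraries. These limits cover counting error only.

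Over the 8 tested receptors 5 log2 fold changes were positive and 3 negative, against 6958 positive and 5249 negative over all tested genes. The receptors had a median of 0.0074 against a median of 0.039 over all tested genes. Their median size without sign was 0.21, against 0.17 over all tested genes. The libraries of the groups did not overlap for 4 receptors, lower for *Fas*, *Tnfrsf1b* and *Tnfrsf9* and higher for *Tnfrsf21*. Over all tested genes 44.1% did not overlap, 16.8% lower and 27.4% higher. The receptors' count over both directions, 4 of 8, is near the background, while by direction it was 3 of 8 lower and 1 of 8 higher, which was not tested. The 3 death-domain receptors included 1 negative and 2 positive values, and the 5 others 2 negative and 3 positive values. With median centring, with voom and TMM scaling, and without sgNT replicate 1 or sgCbfb replicate 1, *Ltbr* and *Tnfrsf12a* turned negative, giving 3 positive and 5 negative values over the 8 receptors and 1 positive and 4 negative over those without a death domain. With quantile normalization *Tnfrsf12a* alone turned, giving 4 of each sign. For 1 gene with 2 libraries per group, the smallest p-value an exact permutation allows is 1 in 3, and the calls therefore rest on the spread that limma shares across genes.

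**Figure D3:**
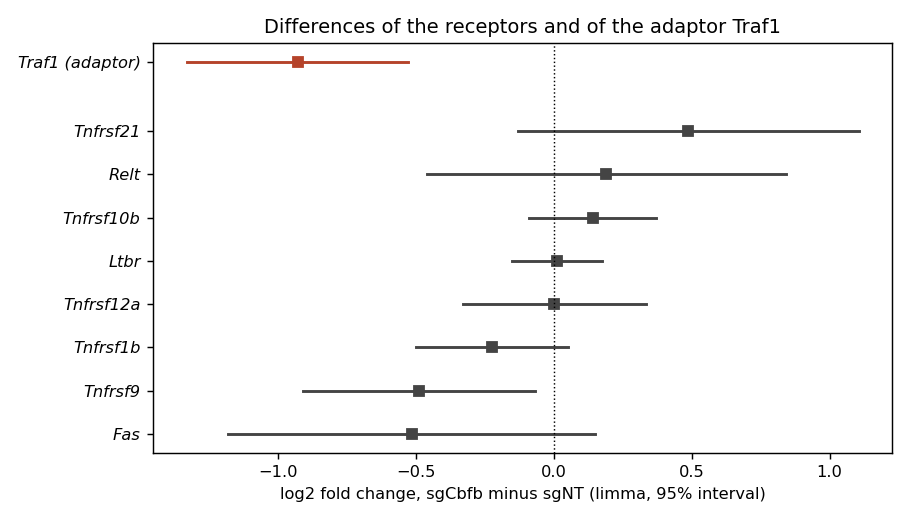
Log2 fold change (sgCbfb minus sgNT) of the 8 tested receptors and of the adaptor *Traf1*, with 95% intervals from limma; red marks an adjusted p-value under 0.05. Each receptor interval includes 0 except that of *Tnfrsf9* (-0.91 to -0.067), which is not adjusted for the number of genes, and *Traf1* lies at -0.93.

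The remaining genes of the pathway were followed in 5 lists of 75 genes in all, of which 52 were tested. Of these, 1 was lower and 0 were higher past the threshold by limma, 5 had an unadjusted p-value under 0.05, and voom on the recovered reads called the same number in each direction. Over all tested genes 1.25% were called lower, 192 of 12207 were called higher, and 14.9% had an unadjusted p-value under 0.05. The gene that fell was *Traf1*, an adaptor that joins TRAF2 at the tails of TNFR2 and CD137 and is itself a well-known target of NF-κB. It lies on chromosome 2 (34941750 to 34961772, minus strand) and its exons overlap no other gene. It had 95 and 81 reads in the sgNT libraries, against 51 and 44 in the sgCbfb libraries, or 28.0 and 24.3 CPM against 13.1 and 13.8 CPM. The groups were well apart, with the higher sgCbfb library far below the lower sgNT library. On the log2 scale the fold change was -0.93 (SE 0.19, 95% interval -1.33 to -0.53, adjusted p = 0.00566 by limma), or 0.398 to 0.694 of the sgNT level. The value stayed between -1.03 and -0.83 over the alternatives, but the call did not hold under all of them. The adjusted p was 0.123 without sgNT replicate 1, 0.551 without sgCbfb replicate 1, 0.511 without sgCbfb replicate 2, 0.0830 with quantile normalization, 0.139 without the mean-variance trend and 0.305 without a filter.

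Of the 33 adaptors and proximal regulators, all were tested and 20 had positive and 13 negative values, with a median log2 fold change of 0.029. Over all tested genes 6958 values were positive and 5249 negative, with a median of 0.039. The 3 with the highest levels were the TAK1-binding protein gene *Tab2*, with a log2 fold change of 0.13 (adjusted p = 0.533 by limma), *Traf7* with -0.14 (adjusted p = 0.573 by limma) and the deubiquitinase gene *Cyld* with -0.21 (adjusted p = 0.317 by limma). Besides *Traf1* and *Cyld*, the unadjusted p-value was under 0.05 for *Cflar* and *Tab3*, which are named after their values were seen. In all this held for 4 of the 33, against 14.9% of all tested genes. *Cflar* encodes c-FLIP, the inhibitor of caspase-8 at death receptors. It had 23.9 and 22.5 CPM in sgNT cells and 31.2 and 31.7 CPM in sgCbfb cells, with a log2 fold change of 0.43 (SE 0.16, adjusted p = 0.174 by limma). *Tab3*, a further TAK1-binding protein gene, had 26 and 50 reads against 70 and 48, and its sgNT libraries differed widely (adjusted p = 0.293 by limma).

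Of the other 18 receptors of the superfamily, 7 were tested and 7 had 0 reads in all libraries. By limma 0 passed and 1 had an unadjusted p-value under 0.05, which 14.9% of all tested genes had. *Tnfrsf1a* was the highest, with a log2 fold change of 0.027 (SE 0.11, adjusted p = 0.947 by limma). The mouse TRAIL decoy receptor genes *Tnfrsf23* and *Tnfrsf22* followed, with values of 0.46 (adjusted p = 0.402 by limma) and 0.21 (adjusted p = 0.859 by limma). *Cd40*, an activator of B cells and antigen-presenting cells, is named after its values were seen. It had 1 and 0 reads in the sgNT libraries, against 4 and 11 in the sgCbfb libraries, a ratio of 14.2 between the pooled rates with an exact counting interval from 2.19 to 599. In the limma fit its log2 fold change was 1.84 (95% interval 0.71 to 2.96), a value that depends on the prior count, and with 1 library left out it ranged from 1.17 without sgCbfb replicate 2, which held 11 of the 15 sgCbfb reads, to 2.50 without sgCbfb replicate 1. It was 2.90 with voom on the recovered reads and 2.86 with voom and TMM scaling. Its adjusted p was 0.0717 by limma, and over the alternatives it ranged from 0.0271 with the replicate block to 0.872 without a filter. *Cd40* met the filter in its sgCbfb libraries alone, at deposited log2 values of 0.68 and 2.01, against -0.20 and -0.79 in sgNT. The filtered test of *Cd40* is therefore not independent of the group where it is high, and it gives no support for a rise.

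The TNF superfamily ligands were scarce. Of 18, 9 had no read in any library, and 6 were tested with 0 called and 0 at an unadjusted p-value under 0.05 by limma. *Tnfsf12*, which encodes TWEAK, the ligand of Fn14, was the most abundant, at 9.72 and 7.20 CPM in sgNT cells and 11.0 and 10.7 CPM in sgCbfb cells. This gave a log2 fold change of 0.35 (adjusted p = 0.601 by limma). *Tnfsf9*, which encodes the ligand of CD137 and is named after its values were seen, had 2 and 7 reads under sgNT, against 2 and 1 under sgCbfb, and did not pass (log2 fold change -0.84, SE 0.54, adjusted p = 0.506 by limma). *Eda* and *Tnfsf15* had between 2 and 14 reads per library, with adjusted p-values of 0.675 and 0.825 by limma. Of the sheddase genes, *Adam17*, whose protease cleaves TNF and TNF receptors from the surface, had a log2 fold change of -0.0082 (SE 0.090), *Adam10* had 0.16 and *Rhbdf1* 0.037, and 0 of the 4 passed by limma or at an unadjusted p-value under 0.05. The non-canonical NF-κB genes *Nfkb2* (-0.0045, SE 0.093) and *Relb* (0.31, SE 0.18) did not pass either, with adjusted p-values of 0.990 and 0.436 by limma.

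**Figure D4:**
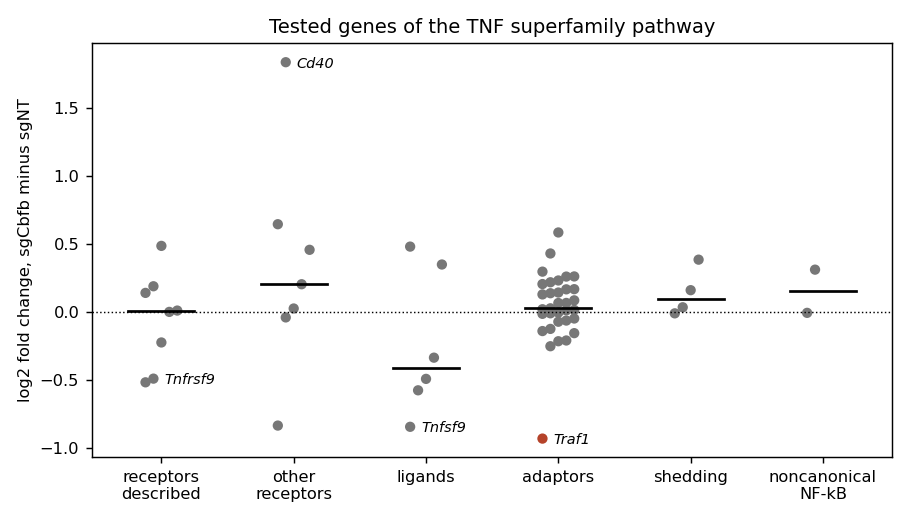
Log2 fold change (sgCbfb minus sgNT) of every tested gene in the 10 receptors and in the 5 pathway lists, with a bar at each list's median; red marks an adjusted p-value under 0.05 by limma. *Traf1* at -0.93 is the only red point, and the median size without sign was 0.46 for the other receptors and 0.49 for the ligands, against 0.14 for the adaptors, with median SEs of 0.48, 0.52 and 0.18.

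The promoters were read for the letters TGTGGT, the core that RUNX proteins bind, on either strand. Of the 32851 RefSeq windows of 250 bases before a transcription start (GRCm38.p6), 14.0% hold the core. Windows matched 8 of the 10 receptors, 10 windows in all, with *Tnfrsf9* and *Tnfrsf19* having more than 1 start each, and 0 of them hold it. *Traf1* has 1 window, which holds the core once. The longer letters TGTGGTT are in 4.4% of all windows, in 0 of the receptor windows and not in that of *Traf1*. A match is a description and not a shown site, and none says only that these letters are not in this window. Printed are the windows of *Traf1*, which fell, and of *Tnfrsf1b* and *Tnfrsf9*, named above for their link to TRAF1. Whether other receptors described here bind TRAF1 was not looked at. Each window is printed from the gene's own strand, 5′ to 3′, with the core in capitals. They lie at chr2:34961773-34962022 (minus) for *Traf1*, chr4:145246871-145247120 (minus) for *Tnfrsf1b* and chr4:150919905-150920154 (plus) for 1 start of *Tnfrsf9*. In the *Traf1* window the core begins 78 bases before the start.
Traf1: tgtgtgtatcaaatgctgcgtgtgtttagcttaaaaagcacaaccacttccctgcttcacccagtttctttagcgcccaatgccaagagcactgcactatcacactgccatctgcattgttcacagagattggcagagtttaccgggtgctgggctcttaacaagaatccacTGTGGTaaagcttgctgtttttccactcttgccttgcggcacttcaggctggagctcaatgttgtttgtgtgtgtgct
Tnfrsf1b: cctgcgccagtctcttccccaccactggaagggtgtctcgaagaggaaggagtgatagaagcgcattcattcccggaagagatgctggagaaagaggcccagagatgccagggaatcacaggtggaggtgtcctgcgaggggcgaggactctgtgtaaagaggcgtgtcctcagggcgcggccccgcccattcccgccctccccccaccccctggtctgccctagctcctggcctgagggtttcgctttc
Tnfrsf9: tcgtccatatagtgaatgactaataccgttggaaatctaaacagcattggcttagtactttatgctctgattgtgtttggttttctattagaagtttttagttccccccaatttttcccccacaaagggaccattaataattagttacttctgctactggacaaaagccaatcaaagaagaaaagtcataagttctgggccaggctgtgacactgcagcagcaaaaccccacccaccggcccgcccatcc

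The *Tnfrsf1b* window has a GC content of 62.8% and holds 12 CG pairs, against 43.2% and 4 in the printed window of *Tnfrsf9* (49.6% and 4 in its other window) and 48.0% and 4 in that of *Traf1*. The window of *Ltbr*, the most abundant receptor, has 69.2% and 18, and that of *Relt*, among the lowest of the detected receptors, has 67.6% and 22. A link between these contents and the level was not tested. The median over all windows is 52.4% and 6 CG pairs.

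With each library left out in turn and under 8 other settings, 0 of the 8 receptors passed in any fit. In 3 of these 12 fits, without either sgCbfb library in turn and without the mean-variance trend, 0 genes of the whole table passed, and those fits say nothing about how stable the count is. *Fas*, *Tnfrsf1b* and *Tnfrsf9* stayed negative and *Tnfrsf10b*, *Tnfrsf21* and *Relt* positive in all 12, while *Ltbr* and *Tnfrsf12a* took either sign close to 0.

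**Figure D5:**
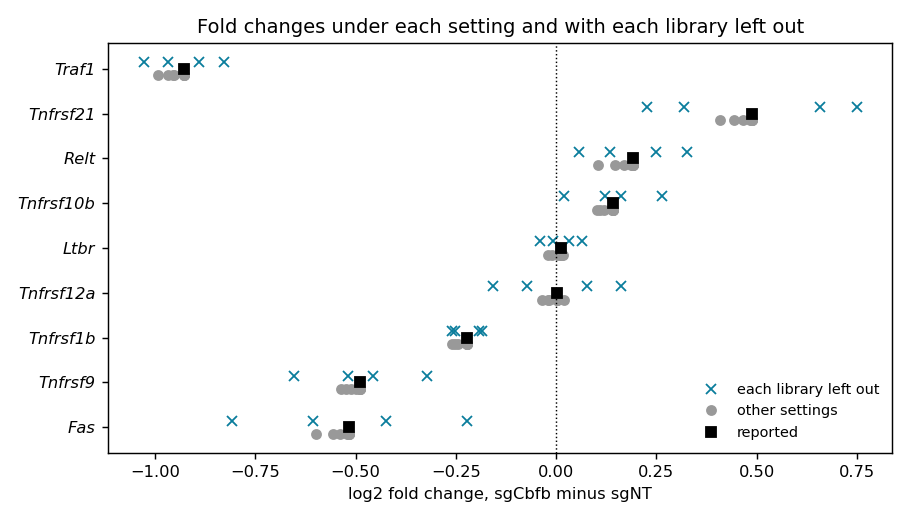
Log2 fold change (sgCbfb minus sgNT) of the 8 tested receptors and *Traf1* as reported (black squares), under the other settings (grey points) and with each library left out (blue crosses). *Fas* runs from -0.81 to -0.22 and *Tnfrsf21* from 0.23 to 0.75, while *Tnfrsf1b* stays between -0.26 and -0.19.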

How the data were processed

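MC38 mRNA was sequenced from the 3′ end (QuantSeq) in 2 sgNT and 2 sgCbfb libraries, grouped by their titles. RNA had an integrity number above 9, per the labels. The authors used cutadapt 1.9 for trimming and HISAT2 2.1.0 for alignment to GRCm38/mm10, and counted reads per gene with featureCounts (2.0.1 in the submitters' processing notes, while the study's methods give another version). The authors deposited log2 CPM values scaled to each library's total, which imply a prior count of 2. The annotation, the use of strand and multi-mapping rules are not given in the sources used here. Whole reads were recovered by inverting that formula: at least 99.99% of values in each library came out within 0.1 of a whole number. CPM in the text is recovered reads over the library total.

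The test took every gene whose deposited log2 value reached 0 in 2 or more libraries. It was run with limma 3.58.1 in R 4.3.3 (lmFit, eBayes with a mean-variance trend, two-sided, Benjamini-Hochberg over 12207 genes, threshold 0.05). The code was also run on simulated reads with an assumed spread and set changes in genes above 5 CPM. That run checks the code and says nothing about the calls in these data. The study's methods name voom and limma, which take counts, so voom on recovered reads was an alternative. TMM scaling trimmed 30% of ratios and 5% of means. Named are all 10 receptors and, of each pathway list, the genes past the threshold and the 3 with the highest levels, by rule. *Cflar*, *Tab3*, *Cd40* and *Tnfsf9* fall outside it and were named after their values were seen, and *Camta1* was added for its overlap with *Tnfrsf9*. The members, lists and tests were chosen with earlier results of these data known. Alternatives were no filter, a minimum of 5 CPM, median centring, quantile normalization, no trend, voom with library totals or TMM scaling, the replicate number as a block, and each library left out. Positions are from GENCODE M21 (GRCm38) and promoters from RefSeq (GRCm38.p6). Figures were drawn with matplotlib 3.10.9.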

Additional observations from a re-analysis of the deposited data

How the results depend on the processing

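The count of receptors past the threshold was 0 under all 12 alternatives, 3 of which called no gene at all. Over these, 87 of 96 receptor values kept their sign and 9 changed it, all of them for *Tnfrsf12a* and *Ltbr*, and the cause was not tested. *Tnfrsf12a* was -0.020 with median centring, -0.036 with quantile normalization, -0.018 with voom and TMM scaling, and between -0.16 and 0.16 with 1 library left out. *Ltbr* was -0.011 with median centring, -0.021 with voom and TMM scaling, and between -0.040 and 0.064 with 1 library left out. Of the pathway lists, 1 gene was called lower in the reported fit and 0 were without a filter, with quantile normalization and without the trend. With 1 library left out there were 0 or 1. Called higher were 0 and, with the replicate block, 1 (*Cd40*). That gene met the filter in its sgCbfb libraries alone, where it was high, so the call gives no support for a rise. Over all genes, against 192 higher and 153 lower, there were 2 and 53 without a filter, 300 higher with a minimum of 5 CPM, 39 and 44 with quantile normalization, 0 and 0 without the trend (1461 genes at an unadjusted p-value under 0.05 by limma), 243 lower with voom and TMM scaling, and 320 higher with the replicate block. With 1 library left out the counts ran from 0 to 115 higher and from 0 to 86 lower, and they were 0 and 0 without either sgCbfb library. The replicate block rests on numbers alone, since deviations of equally numbered libraries had a correlation of -0.0042, and no pairing was assumed. Count models other than voom were planned on the recovered reads and not run. *Fas*, *Relt* and *Tnfrsf21* had 13 to 36 reads per library, which limits what the depth could show for them. The longer RUNX letters are in 4.4% of promoter windows.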
